A study of Mus musculus with 11 samples.

Results

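The MYC and MAX network was described in splenic germinal center B cells of mice with a conditional loss of Crebbp, a conditional loss of Ep300, or neither. It was taken as 10 genes chosen by symbol: Myc, Mycn, Bmyc, Max, Mga, Mnt, Mxd1, Mxd4, Mxi1 and Mlx. They are 10 of the 48593 genes in the deposited table, and 9 of the 10 had a mean normalized read count of at least 10 and were tested, among 16515 genes tested in all. RNA came from spleen cells positive for B220, PNA and CD95 that were sorted 12 days after mice had received sheep red blood cells. The 5 WT libraries came from Crebbp+/+;Ep300+/+;Cg1cre/+ mice, the 3 Crebbp-KO libraries (labelled CBP-KO) from Crebbpfl/fl;Ep300+/+;Cg1cre/+ mice and the 3 Ep300-KO libraries (labelled p300-KO) from Crebbp+/+;Ep300fl/fl;Cg1cre/+ mice. All 3 groups thus carried 1 Cg1cre allele, which drives Cre recombinase from the immunoglobulin gamma 1 heavy chain locus and acts in B cells that enter the germinal center reaction. The labels name the WT mice as littermates from Crebbp crosses and none as a littermate of Ep300-KO mice. Cross or background and the loss of Ep300 therefore cannot be told apart where Ep300-KO is compared. Age, sex and batch were not given in the labels.

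MYC is a transcription factor that drives cell growth and division, and it binds DNA as a heterodimer with MAX at E-boxes, whose core letters are CACGTG. MAX also pairs with the MXD proteins, MNT and MGA, which repress many of the same genes, so the balance of partners on MAX shapes the output of the network. MLX is a MAX-like protein that pairs with MXD1, MXD4, MNT and the glucose-responsive factors MLXIP and MLXIPL. In germinal centers, MYC marks B cells that were selected by T cell help, and CREBBP and EP300 are acetyltransferases that act as coactivators at enhancers.

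Promoters were examined because several members differed between groups, in differing directions, and because the network's own binding letters can be searched for in them. RefSeq promoters (GRCm38.p6) covering 250 bases before to 50 bases after each start were found for 9 of the 10 members, 11 promoters in all, and the Myc promoter was not analysed here. The E-box CACGTG, which reads the same on both strands, was held by the promoters of 4 members, Mxd4, Mnt, Mlx and Max, and by 7.15% of 32851 promoters of the same length. The first base of the E-box lay 219 bases before the start in Mxd4, 123 in Mnt, 40 in Mlx and 3 in Max. The core of the cAMP response element, TGACG on either strand, was held by Bmyc, Mga and Mlx and by 20.8% of all promoters, and the full element TGACGTCA, which contains that core, by 0 members and 1.79% of promoters. A match is a description of letters and not a site of binding. The 250 bases before the RefSeq start are shown 5′ to 3′ on the gene's strand. The E-box is in capitals for Mxd4, which was higher than WT in Ep300-KO, for Mnt, which was lower there, and for Mlx. The TGACG core is in capitals for Bmyc, which was lower than WT in Crebbp-KO and higher in Ep300-KO. The Mxd4 stretch is chr5:34187711-34187960 (minus strand), Mnt chr11:74830674-74830923, Mlx chr11:101087040-101087289 and Bmyc chr2:25706629-25706878 (all plus strand). The RefSeq start used for Bmyc lies within the gene as annotated by GENCODE (25706739 to 25707721). Part of the Bmyc stretch, with its TGACG core, therefore lies inside that annotated gene.
Mxd4: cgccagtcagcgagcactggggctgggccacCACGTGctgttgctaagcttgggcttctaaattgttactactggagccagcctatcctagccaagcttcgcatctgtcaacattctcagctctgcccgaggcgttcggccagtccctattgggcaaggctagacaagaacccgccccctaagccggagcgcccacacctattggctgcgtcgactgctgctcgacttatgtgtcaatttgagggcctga
Mnt: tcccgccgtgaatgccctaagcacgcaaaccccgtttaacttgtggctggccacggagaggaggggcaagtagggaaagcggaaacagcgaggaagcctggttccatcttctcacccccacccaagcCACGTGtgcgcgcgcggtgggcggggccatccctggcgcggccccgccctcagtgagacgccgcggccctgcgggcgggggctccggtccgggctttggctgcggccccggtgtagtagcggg
Mlx: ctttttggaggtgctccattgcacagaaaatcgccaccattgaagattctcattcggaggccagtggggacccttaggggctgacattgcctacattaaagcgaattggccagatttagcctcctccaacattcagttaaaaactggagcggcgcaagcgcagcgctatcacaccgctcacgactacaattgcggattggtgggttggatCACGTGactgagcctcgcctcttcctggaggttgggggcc
Bmyc: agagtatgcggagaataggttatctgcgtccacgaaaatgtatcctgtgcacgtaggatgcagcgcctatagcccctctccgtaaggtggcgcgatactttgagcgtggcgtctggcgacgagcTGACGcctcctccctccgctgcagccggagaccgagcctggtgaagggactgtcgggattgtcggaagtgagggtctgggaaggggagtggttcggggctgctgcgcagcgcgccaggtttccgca

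Depth ranged from 53550726 to 132861266 reads per library. All 13 germinal center B cell markers passed the filter. Ep300 stood below every WT library in the 3 Ep300-KO libraries (log2 -0.55, limma adjusted p = 0.00015), while Crebbp in Crebbp-KO overlapped WT (log2 -0.10, adjusted p = 0.459), and counts per gene do not show a deleted exon. WT_46 stood apart in its summed level of 14 macrophage and monocyte markers, 9591 against at most 4999.97 in the other WT libraries. p300-KO_18 stood apart in holding both Xist and Y-linked transcripts at high levels, where each other library held high levels of one kind only. Whether that library holds RNA of more than 1 animal was not tested.

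In WT, levels per kilobase of exon put Max first and Mxd1, Mxi1 and Mycn last. Max, the shared partner, stood at 4711 ± 471 normalized reads per kilobase (mean ± SD, n = 5), above Bmyc at 3323 ± 266 and Myc at 1924 ± 316. Mxd4 (1379 ± 188), Mlx (1304 ± 31.2), Mnt (1185 ± 31.0) and Mga (814 ± 41.3) followed. Mxd1 stood at 138 ± 48.9, Mxi1 at 44.9 ± 7.84 and Mycn at 0.458 ± 0.632. Of neighbours in this order, the WT libraries of Myc and Mxd4, and of Mxd4 and Mlx, overlapped, and those of the other neighbours did not. Lengths were those of exons in basic protein-coding transcripts. With the length of all annotated exons, chosen as an alternative after seeing the data, Bmyc came before Max (3323 and 2563) and Mxd4 fell from the fourth to the seventh place (631).

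Myc (chromosome 15, 61985391 to 61990374) fell in Crebbp-KO and lay within the WT range in Ep300-KO. Its normalized read count was 4404, 3720.0, 5850.2, 4737 and 4832 in WT_41, WT_46, WT_4, WT_7 and WT_288. It was 2736 in CBP-KO_53, 2698 in CBP-KO_55 and 3441 in CBP-KO_1, and 5801, 5183 and 5268 in p300-KO_18, p300-KO_287 and p300-KO_289. Every Crebbp-KO library thus lay below every WT library, while the Ep300-KO libraries lay within the WT range. The mean fell from 4709 ± 773 (SD, n = 5) in WT to 2958 ± 418 (n = 3) in Crebbp-KO, a log2 fold change of -0.66 ± 0.12 SE, or 36.9% less (limma adjusted p = 0.00586). In Ep300-KO it was 5417 ± 335 (n = 3), with a log2 difference from WT of 0.22, a 95% interval of -0.05 to 0.48 and adjusted p = 0.300. The direct comparison of the knockouts showed Myc lower in Crebbp-KO by a log2 of -0.88 ± 0.14, with a 95% interval of -1.18 to -0.58 (adjusted p = 0.00207). These are bulk samples, in which fewer cells that express a gene and less RNA per cell cannot be told apart.

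Bmyc (chromosome 2, 25706739 to 25707721), a rodent paralog of Myc that resembles its amino-terminal part and lacks its DNA-binding region, moved in opposite directions in the knockouts. It stood at 3017, 3115, 3644, 3127 and 3431 in WT_41, WT_46, WT_4, WT_7 and WT_288. The Crebbp-KO libraries held 2312 (CBP-KO_53), 2123 (CBP-KO_55) and 2551 (CBP-KO_1), and the Ep300-KO libraries 4309 (p300-KO_18), 4504 (p300-KO_287) and 3869 (p300-KO_289). The 3 groups did not overlap, with Crebbp-KO lowest and Ep300-KO highest. Against WT (3267 ± 262), Bmyc fell to 2329 ± 214 in Crebbp-KO (log2 -0.49 ± 0.08, adjusted p = 0.00341). It rose to 4228 ± 325 in Ep300-KO (log2 0.37 ± 0.08, adjusted p = 0.0109). The rise was no longer called without p300-KO_287 (adjusted p = 0.0551) or without WT_46 and p300-KO_18 together (0.0656). Between the knockouts Bmyc differed by a log2 of -0.86 ± 0.09 (adjusted p = 0.000146). The longest identical stretch between any Myc and Bmyc transcript was 23 bases. An antisense gene, A230005M16Rik, covers the 983 bases of Bmyc, and libraries that do not keep strand cannot tell the pair apart. The same limit holds for Mxi1, which AC133451.2 overlaps by 5146 bases and Gm10197 by 201 on the opposite strand, and for Mxd4, which the antisense gene Gm42846 overlaps by 1001 bases. Across the 11 libraries Bmyc and Myc had a Pearson correlation of 0.93 on the log2 scale, given as a description of libraries that include the group differences above.

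Mycn, the paralog that is prominent in embryonic tissue, was nearly absent. It had 2 reads in WT_7, 6 in WT_288, 2 in p300-KO_287, 8 in p300-KO_289 and 0 in the other 7 libraries, and it was not tested.

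**Figure D1:**
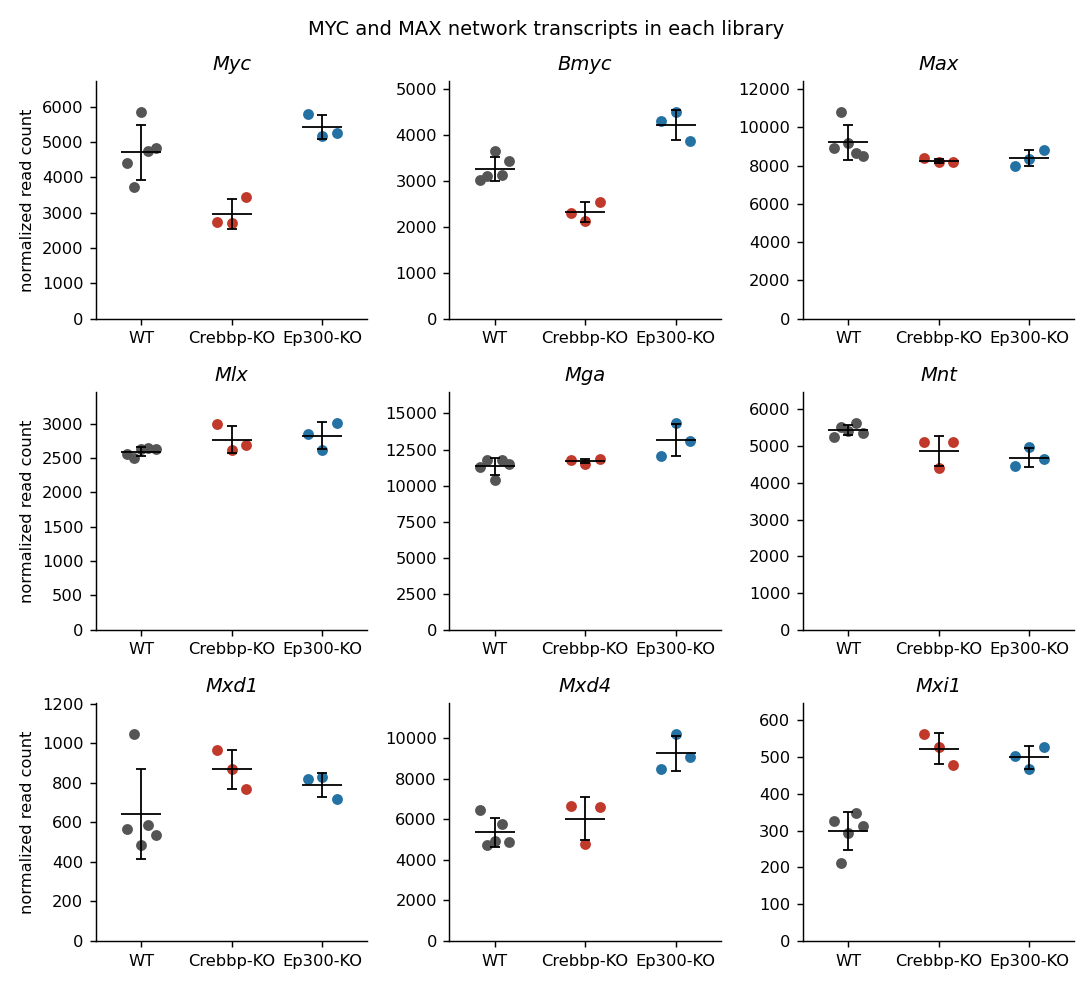
Normalized read count (vertical axes, from 0) of the 9 tested members in each library, by group; points are libraries, the wide mark is the mean and the bar the SD (n = 5, 3 and 3). Myc and Bmyc lie lowest in Crebbp-KO, Mxd4 is highest in Ep300-KO, and Mxi1 lies above WT in both knockouts, while WT_46 is the high WT point of Mxd1 at 1045.

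Max, without which MYC does not bind DNA, did not pass the test in any comparison. It ranged from 8514 to 10807 in WT with a median of 8929, and the highest value was that of WT_46. It stood at 8383, 8207 and 8194 in CBP-KO_53, CBP-KO_55 and CBP-KO_1, and at 7983, 8345 and 8847 in p300-KO_18, p300-KO_287 and p300-KO_289. The Crebbp-KO libraries lay just under the lowest WT library, and the Ep300-KO libraries overlapped WT. The log2 difference from WT was -0.15 (95% interval -0.31 to 0.00, adjusted p = 0.227) in Crebbp-KO and -0.13 (-0.29 to 0.02, adjusted p = 0.273) in Ep300-KO.

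Mlx also passed no test. It stood between 2495 and 2643 in WT, between 2622 and 2998 in Crebbp-KO and between 2621 and 3007 in Ep300-KO. Its log2 differences from WT were 0.09 (95% interval -0.04 to 0.23, adjusted p = 0.437) in Crebbp-KO and 0.12 (-0.0150 to 0.26, adjusted p = 0.252) in Ep300-KO. Psmc3ip lies on the opposite strand and overlaps Mlx by 385 bases, so its reads could be counted in part with Mlx.

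Among the MAX-binding repressors, Mxi1 rose in both knockouts and Mxd4 in Ep300-KO. Mxi1 (chromosome 19, 53310518 to 53375810), an MXD protein that recruits SIN3 corepressors, stood at 326, 213, 293, 349 and 313 in WT_41, WT_46, WT_4, WT_7 and WT_288. It stood at 562, 526 and 478 in CBP-KO_53, CBP-KO_55 and CBP-KO_1, and at 503, 467 and 527 in p300-KO_18, p300-KO_287 and p300-KO_289. Both knockouts lay above every WT library and overlapped each other. From 299 ± 52.2 in WT, Mxi1 rose to 522 ± 42.1 in Crebbp-KO (log2 0.82 ± 0.15, adjusted p = 0.0049) and to 499 ± 30.5 in Ep300-KO (log2 0.76 ± 0.15, adjusted p = 0.00567). These comparisons share the 5 WT libraries, of which WT_46 had the lowest Mxi1. The direct comparison of the knockouts gave log2 0.06 with a 95% interval of -0.29 to 0.42 (adjusted p = 0.853).

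Mxd4 (chromosome 5, 34173883 to 34187720), an MXD protein linked to quiescence and differentiation, was the most abundant per kilobase of Mxd1, Mxd4 and Mxi1. Mxd3, an MXD gene outside the 10 members, stood higher in WT, at a mean of 3111 normalized reads per kilobase. Mxd4 stood at 6449, 4726, 4934, 5759 and 4901 in WT_41, WT_46, WT_4, WT_7 and WT_288. It was 6656, 4794 and 6631 in CBP-KO_53, CBP-KO_55 and CBP-KO_1, and 8492, 10195 and 9088 in p300-KO_18, p300-KO_287 and p300-KO_289. The Ep300-KO libraries lay above all 8 others, and Crebbp-KO overlapped WT. Mxd4 rose from 5354 ± 731 in WT to 9258 ± 864 in Ep300-KO, a log2 of 0.80 ± 0.12, or 73.7% more (adjusted p = 0.00156). In Crebbp-KO it was 6027 ± 1068, with log2 0.16 (95% interval -0.10 to 0.43, adjusted p = 0.488). Mxd4 was lower in Crebbp-KO than in Ep300-KO (log2 -0.63 ± 0.14, adjusted p = 0.014), a call that ended without p300-KO_287 (adjusted p = 0.0581) or CBP-KO_55 (0.0552).

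Mxd1, which takes MAX from MYC as cells differentiate, was decided by 1 WT library. It stood at 565, 484, 586 and 534 in WT_41, WT_4, WT_7 and WT_288 but at 1045 in WT_46. It was 966, 871 and 769 in CBP-KO_53, CBP-KO_55 and CBP-KO_1, and 821, 829 and 717 in p300-KO_18, p300-KO_287 and p300-KO_289. The knockout libraries lay above the other 4 WT libraries and below WT_46. With all libraries the log2 difference from WT was 0.49 ± 0.20 in Crebbp-KO (adjusted p = 0.168) and 0.35 ± 0.20 in Ep300-KO (adjusted p = 0.302). Without WT_46 it was 0.68 (adjusted p = 0.00225) and 0.54 (adjusted p = 0.00644). The part that the macrophage transcripts of WT_46 have in its Mxd1 level was not tested.

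Mnt and Mga, large MAX-binding repressors, differed from WT in Ep300-KO by small amounts near the threshold. Mnt, which is expressed in both resting and dividing cells, stood between 5262 and 5627 in WT with a median of 5416, and at 4456, 4965 and 4651 in p300-KO_18, p300-KO_287 and p300-KO_289, so the groups did not overlap. It fell from 5440.0 ± 142 to 4691 ± 257 (log2 -0.21 ± 0.06, adjusted p = 0.039). That call was lost without WT_41, WT_46, WT_4, WT_7, WT_288, p300-KO_18 or p300-KO_289, each left out alone (adjusted p up to 0.151), and with quantile normalization (0.0667). In Crebbp-KO, Mnt stood at 5119, 4400 and 5111 in CBP-KO_53, CBP-KO_55 and CBP-KO_1 (log2 -0.16, 95% interval -0.29 to -0.03 with no adjustment for many genes, adjusted p = 0.134). Mga, which also carries a T-box domain and joins a noncanonical Polycomb complex, stood between 10369 and 11761 in WT and at 12068, 14328 and 13098 in p300-KO_18, p300-KO_287 and p300-KO_289. It rose from 11343 ± 576 to 13165 ± 1132 (log2 0.21 ± 0.06, adjusted p = 0.0394), a call lost without WT_41, WT_4, WT_7, WT_288, p300-KO_287, p300-KO_289, CBP-KO_55 or CBP-KO_53 (at most adjusted p = 0.168). In Crebbp-KO, Mga stood between 11527 and 11810 (log2 0.05, 95% interval -0.08 to 0.18, adjusted p = 0.714).

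In all, 3 of the 9 tested members changed in Crebbp-KO against WT: Myc and Bmyc fell and Mxi1 rose. Of all genes tested, 8.36% were called in this comparison, 3.48% higher and 4.88% lower. In Ep300-KO against WT 5 of 9 changed, where Bmyc, Mga, Mxd4 and Mxi1 rose and Mnt fell, beside 11.9% of all genes, 5.84% higher and 6.09% lower. In Ep300-KO the calls of Mxd4 and Mxi1 held under all 23 alternatives, that of Bmyc under 21, that of Mnt under 12 and that of Mga under 11. In Crebbp-KO against Ep300-KO, Myc, Bmyc and Mxd4 were lower, 3 of 9, beside 9.42% of all genes, 4.79% higher and 4.63% lower. The median log2 difference of the 9 members was 0.05 in Crebbp-KO and 0.22 in Ep300-KO against WT, beside 0.01 and -0.01 for all genes tested. The calls of Myc, Bmyc and Mxi1 in Crebbp-KO held under all 23 alternatives.

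**Figure D2:**
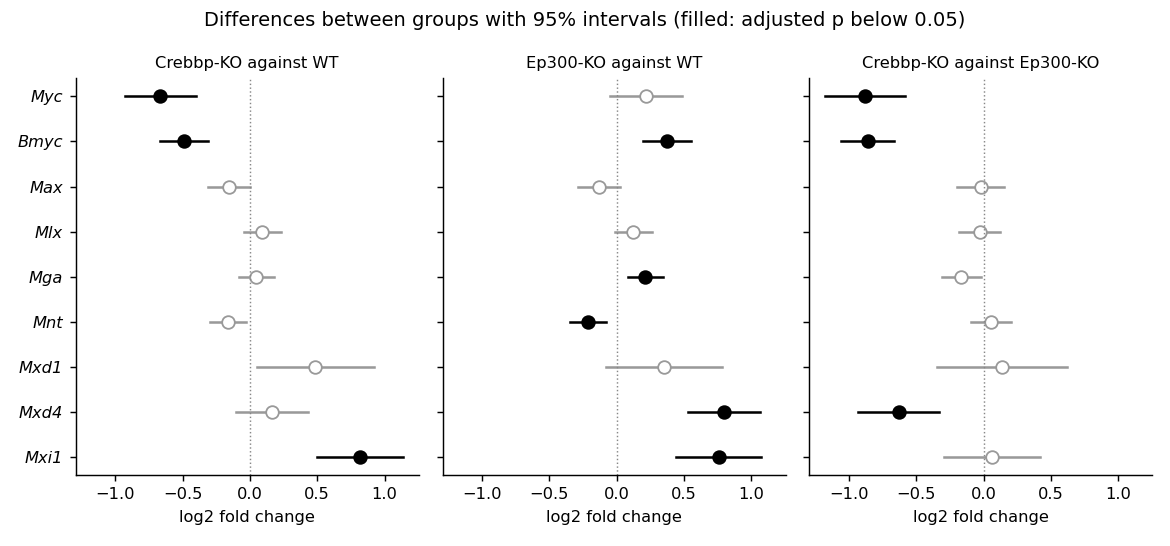
Log2 fold changes (horizontal axes) of the 9 tested members in the 3 comparisons, with 95% intervals that are not adjusted for many genes; filled points passed limma at an adjusted p below 0.05. Myc stands at -0.66 in Crebbp-KO and 0.22 in Ep300-KO against WT, and Mxi1 at 0.82 and 0.76.

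The level of Myc relative to 4 of its opposing partners was lowest in Crebbp-KO. As a description with no test, the level of Myc per kilobase was divided by the summed levels per kilobase of Mxd1, Mxd4, Mxi1 and Mnt. The ratio was 0.705 ± 0.141 in WT (0.568 to 0.920), 0.422 ± 0.0556 in Crebbp-KO (0.358 to 0.460) and 0.610 ± 0.0804 in Ep300-KO (0.535 to 0.695). Every Crebbp-KO library lay below every WT library, and Ep300-KO overlapped WT. The repressor sum was 2747 ± 176 in WT, 2880 ± 365 in Crebbp-KO and 3651 ± 278 in Ep300-KO. The size of the ratio depends on the exon lengths, and with all annotated exons it ran from 0.709 to 1.16 in WT, 0.477 to 0.613 in Crebbp-KO and 0.775 to 0.991 in Ep300-KO. It depends on the genes summed too. With Mga and Mxd3 added, chosen after seeing the data, it was 0.289 ± 0.0546 in WT (0.231 to 0.375), 0.196 ± 0.0207 in Crebbp-KO (0.176 to 0.217) and 0.306 ± 0.0270 in Ep300-KO (0.284 to 0.336). Crebbp-KO stayed below every WT library, and the mean of Ep300-KO then lay above that of WT. That wider sum ran from 6372 to 6965 in WT, 5699 to 6469 in Crebbp-KO and 7058 to 7460 in Ep300-KO.

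**Figure D3:**
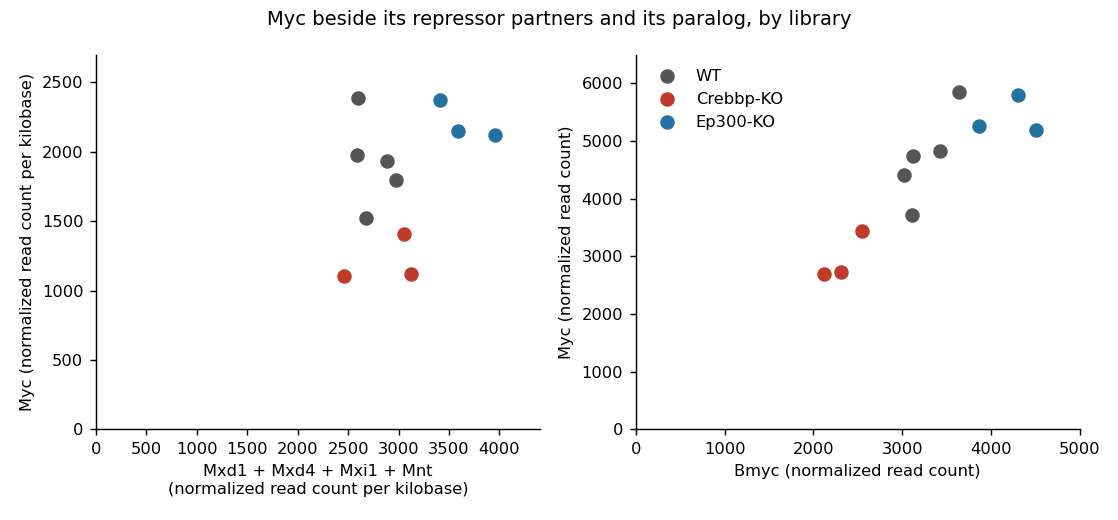
Left, Myc against the sum of Mxd1, Mxd4, Mxi1 and Mnt, both in normalized read count per kilobase; right, Myc against Bmyc in normalized read count. Each point is 1 of the 11 libraries; Crebbp-KO libraries are the lowest for Myc and Bmyc, and Ep300-KO libraries lie farthest right, with repressor sums of 3410 to 3956.

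The other genes of the pathway were taken from lists. Of the 4 remaining network genes, 1 fell in Crebbp-KO and 2 in Ep300-KO, where 4.88% and 6.09% of all genes were called lower. Mxd3, an MXD protein of dividing cells, fell in both knockouts, from 4128 ± 89.3 in WT to 3253 ± 131 in Crebbp-KO (log2 -0.34, adjusted p = 0.00242) and 3530 ± 215 in Ep300-KO (log2 -0.23, adjusted p = 0.0174; 0.0777 without p300-KO_287). Mxd3 thus moved the opposite way from Mxi1. Mlxip, a glucose-responsive partner of MLX, fell in Ep300-KO from 13612 ± 1439 to 10661 ± 486 (log2 -0.35, adjusted p = 0.0155), a call lost without p300-KO_18 or p300-KO_289 (adjusted p up to 0.0725). Mycl stood at 66.1 ± 34.8 in WT, 68.1 ± 12.9 in Crebbp-KO and 123 ± 26.0 in Ep300-KO, and passed no test (adjusted p = 0.835 and 0.0851 against WT).

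Of 32 targets that MYC activates, 2 fell and 0 rose in Crebbp-KO, where 4.88% of all genes were called lower and 3.48% higher. In Ep300-KO 2 fell and 2 rose, beside 6.09% and 5.84% of all genes. Counts this close to the share over all genes are not a result about these targets. Their median log2 was -0.06 and -0.07 beside 0.01 and -0.01 for all genes. Of the 32, 24 had log2 values below 0 in Crebbp-KO and 25 in Ep300-KO, mostly by small amounts and without a call. Ccnd2, cyclin D2, fell in Crebbp-KO from 2109 ± 302 to 827 ± 115 (log2 -1.35 ± 0.12, adjusted p = 0.000191) and stood at 2002 ± 160 in Ep300-KO (log2 -0.07, adjusted p = 0.804). Ccnd2 was lower in Crebbp-KO than in Ep300-KO (log2 -1.28, adjusted p = 0.000158). The only other target called between the knockouts, E2f1, was higher in Crebbp-KO (log2 0.40, limma adjusted p = 0.00295). Odc1, the first enzyme of polyamine synthesis, fell in both, from 22143 ± 1873 to 15383 ± 822 in Crebbp-KO (log2 -0.52, adjusted p = 0.000738) and 17582 ± 828 in Ep300-KO (log2 -0.33, adjusted p = 0.0079). E2f1, a factor of S phase entry, fell in Ep300-KO (log2 -0.27, adjusted p = 0.0114; 0.0531 without p300-KO_287). Tert, the catalytic subunit of telomerase, rose there from 337 ± 61.1 to 511 ± 32.1 (log2 0.61, adjusted p = 0.0153), a call lost without p300-KO_18 or p300-KO_287 (up to 0.0637). Hk2, a hexokinase, rose there by log2 0.26 (adjusted p = 0.0426), a call lost without WT_41, WT_46, WT_7, WT_288, any Ep300-KO library or CBP-KO_53 (up to 0.134). The nucleolar genes Ncl (log2 -0.03 and -0.04 in Crebbp-KO and Ep300-KO), Npm1 (-0.07 and 0.02) and Nop56 (-0.10 and -0.07), chosen here after their values were seen, did not pass.

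Of 6 genes that MYC represses, 3 rose and 1 fell in Crebbp-KO, and 1 rose and 1 fell in Ep300-KO. Of all genes tested, 3.48% were called higher and 4.88% lower in Crebbp-KO, and 5.84% and 6.09% in Ep300-KO. Cdkn1b, the inhibitor p27 of cyclin-dependent kinases, rose in both, from 1661 ± 240.0 to 2662 ± 116 in Crebbp-KO (log2 0.69, adjusted p = 0.0014) and 2602 ± 104 in Ep300-KO (log2 0.66, adjusted p = 0.00141). Cdkn2b, the inhibitor p15, rose in Crebbp-KO from 26.3 ± 4.40 to 53.1 ± 7.24 (log2 0.99, adjusted p = 0.0241), a call lost without any 1 of the Crebbp-KO libraries (up to 0.094). Cdkn2c, the inhibitor p18, rose there by log2 0.23 (adjusted p = 0.0171), a call lost without CBP-KO_53 or CBP-KO_1 (up to 0.0747). Ndrg1, a stress-response gene, fell there by log2 -1.24 (adjusted p = 0.0247), a call that ended without WT_41 or either of CBP-KO_53 and CBP-KO_55 (at most 0.128). Cdkn1a, the inhibitor p21, fell in Ep300-KO from 211 ± 13.0 to 129 ± 19.1 (log2 -0.71, adjusted p = 0.0188; 0.0874 without p300-KO_287).

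Of 19 cofactors of MYC and the MXD proteins, limma called 0 in Crebbp-KO (3 at an unadjusted p below 0.05, 0 by edgeR, 0 by DESeq2) and 1 fell in Ep300-KO, the elongation kinase Cdk9 (log2 -0.24, adjusted p = 0.0134; 0.0597 without p300-KO_287). With 8.36% and 11.9% of all genes called, so few genes do not set the cofactors apart. Of 9 subunits of the MGA complex, limma called 0 in Crebbp-KO (0 unadjusted, 0 by edgeR, 0 by DESeq2) and 0 in Ep300-KO (2 unadjusted, 0 by edgeR, 1 by DESeq2). Of 13 regulators of MYC protein stability, 2 rose and 1 fell in Crebbp-KO and limma called 0 in Ep300-KO (4 unadjusted, 1 by edgeR, 2 by DESeq2). Skp2, a ubiquitin ligase subunit that targets MYC and p27, stood at 3653 ± 359 in WT and rose to 4694 ± 424 in Crebbp-KO (log2 0.36, adjusted p = 0.0315), a call lost without WT_41, WT_4, WT_288, CBP-KO_53 or CBP-KO_55 (at most 0.159). Cip2a, which protects MYC from dephosphorylation, rose by log2 0.25 (adjusted p = 0.0296), lost without WT_41, WT_4 or any Crebbp-KO library (up to 0.113). Usp36, a nucleolar deubiquitinase, fell by log2 -0.18 (adjusted p = 0.0267), lost without WT_7 or any Crebbp-KO library (up to 0.0898).

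Regulators of Myc are read beside the 8.36% of all genes called in Crebbp-KO and 11.9% in Ep300-KO against WT. Of 9 genes that regulate or adjoin Myc, limma called 0 in Crebbp-KO (3 at an unadjusted p below 0.05, 0 by edgeR, 2 by DESeq2) and 1 rose in Ep300-KO. That gene was Stat6, which carries interleukin 4 signals (log2 0.20, adjusted p = 0.0306), with a call lost without WT_41, WT_288 or any Ep300-KO library (up to 0.100). Stat6 was lower in Crebbp-KO than in Ep300-KO (log2 -0.37, adjusted p = 0.00261), as was Prdm1, the repressor that starts plasma cell differentiation and represses Myc (log2 -2.02, adjusted p = 0.0114; 0.0504 without p300-KO_287). Bcl6, the master repressor of the germinal center program, did not pass in either knockout (log2 -0.09 and 0.18, adjusted p = 0.706 and 0.347). Pvt1, the noncoding gene next to Myc, stood at 746 ± 88.2 in WT, 678 ± 43.3 in Crebbp-KO and 677 ± 86.8 in Ep300-KO and passed no test. Of the targets of MLX with its Mondo partners, Txnip rose in Ep300-KO by log2 0.27 (adjusted p = 0.0486), lost without WT_41, WT_4, WT_7, WT_288, p300-KO_18, p300-KO_287, CBP-KO_53 or CBP-KO_1 (up to 0.177), and Arrdc4 was too low to test.

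**Figure D4:**
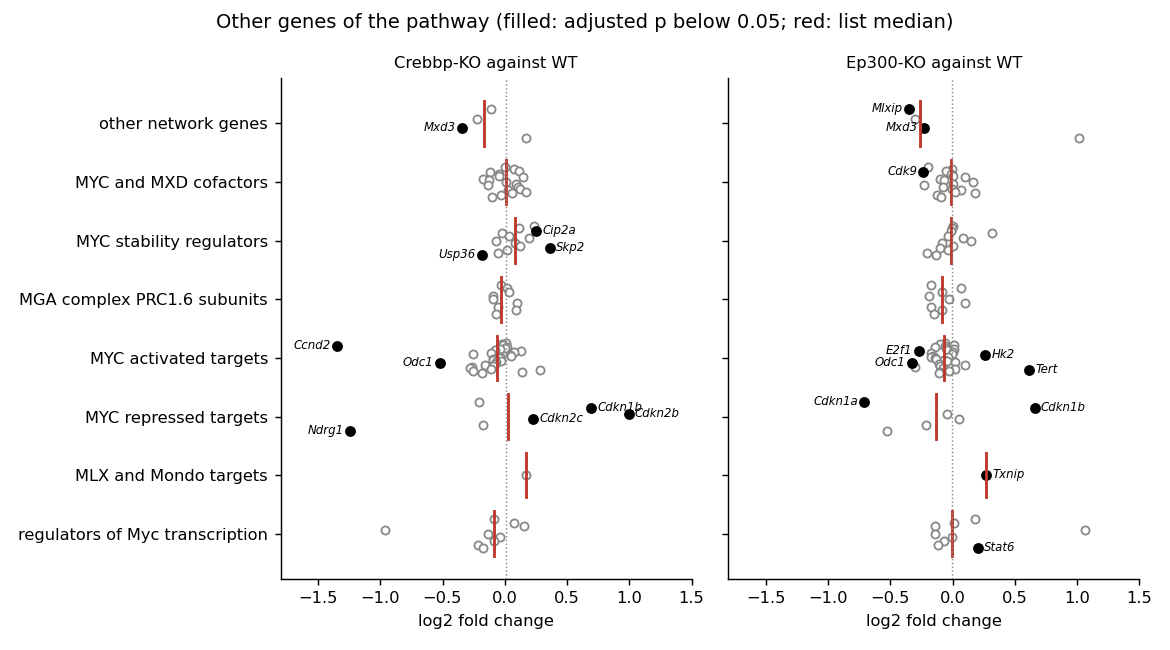
Log2 fold changes (horizontal axes) of the tested genes in 8 pathway lists, in Crebbp-KO and Ep300-KO against WT; each point is a gene, filled and named if its adjusted p was below 0.05, red bars are list medians and the dotted line is the median of all genes tested. Most MYC activated targets lie near the dotted line, while Ccnd2 stands at -1.35 in Crebbp-KO and Cdkn1b at 0.69 and 0.66.

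The 5 genes most like Myc over the 11 libraries, by Pearson correlation of log2 values among 10402 other genes with a mean of at least 100, were Rinl (0.98), Btnl1 (0.96), Tsacc (0.96), Batf (0.95) and Cd82 (0.95). These are descriptions of libraries that include the group differences. In Crebbp-KO against WT, Rinl and Batf were not called (limma adjusted p = 0.0584 and 0.0571), while Btnl1, Tsacc and Cd82 were lower. Btnl1, a butyrophilin-like gene, stood at 697 ± 83.1 in WT, 317 ± 82.7 in Crebbp-KO and 808 ± 51.0 in Ep300-KO. Cd82, a tetraspanin, stood at 6274 ± 536 in WT, 4935 ± 478 in Crebbp-KO and 6515 ± 129 in Ep300-KO. Both followed the order of Myc, with Crebbp-KO lowest and Ep300-KO highest in the mean. Because they were picked for their correlation with Myc in these same libraries, that shared order is not a separate result.

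Markers of other cell types moved with the groups. For the counts below, the share of all genes called against WT was 8.36% in Crebbp-KO and 11.9% in Ep300-KO. The 13 germinal center B cell markers summed to 849969 to 914027 in WT, 785682 to 879627 in Crebbp-KO and 864826 to 911818 in Ep300-KO. Of these, 3 fell in Crebbp-KO (Cd79a, Fas and Rgs13), and Fas and Rgs13 also fell in Ep300-KO. The summed level of 14 macrophage and monocyte markers was 3539 to 9591 in WT, 1977 to 2905 in Crebbp-KO and 2430 to 3286 in Ep300-KO, and 4 of the 10 tested fell in Crebbp-KO and 1 in Ep300-KO. All 10 tested had log2 values below 0 in Crebbp-KO, with a median of -1.61. Those that fell there were Mpeg1 (log2 -1.29, adjusted p = 0.0119), Adgre1 (-1.63, 0.0157), C1qb (-3.47, 0.0242) and C1qc (-3.49, 0.0244), while the receptor Csf1r had log2 -0.14 (0.608). Mpeg1 also fell in Ep300-KO (log2 -1.18, adjusted p = 0.0147). The 7 plasma cell markers summed to 69014 to 84938 in WT, 76163 to 88091 in Crebbp-KO and 91170 to 103853 in Ep300-KO. Of 6 tested, 3 rose in Ep300-KO (Sdc1, Xbp1 and Jchain) and 1 fell in Crebbp-KO, Irf4 (log2 -0.73, adjusted p = 0.0029). Of 12 T cell markers, 7 had a mean below 10, with Cd3e at 5.1 or less, and the list's sum of 9096 to 11290 in WT against 5023 to 6086 in Crebbp-KO and 5075 to 6232 in Ep300-KO was mostly Lck, which fell in both knockouts (log2 -0.93 and -0.89). Lat fell in Crebbp-KO (log2 -0.74, adjusted p = 0.0063), and Thy1 rose in Ep300-KO from 44.2 ± 23.6 to 282 ± 129 (log2 2.73, adjusted p = 0.00567). The 7 dendritic cell markers summed to 4317 to 5730 in WT, 2964 to 3485 in Crebbp-KO and 2635 to 2788 in Ep300-KO, mostly from Flt3, and Siglech was at 0 in all WT and Crebbp-KO libraries. Of 4 tested, only Flt3 was called against WT. It fell in Crebbp-KO (log2 -0.60, limma adjusted p = 0.00228) and in Ep300-KO (-0.86, 0.000144). In each knockout 3 of the 4 had log2 values below 0, with Xcr1 at 0.32 in Crebbp-KO and Zbtb46 at 0.70 in Ep300-KO. Naive B cell markers, of which limma called 0 of 6 in Crebbp-KO (3 unadjusted, 0 by edgeR, 1 by DESeq2) and 0 in Ep300-KO (0 unadjusted, 0 by edgeR, 0 by DESeq2), summed to 18110 to 33973 in WT, 16509 to 25398 in Crebbp-KO and 30174 to 37801 in Ep300-KO. Erythroid markers summed to 278 to 533 in WT, 214 to 501 in Crebbp-KO and 89.6 to 295 in Ep300-KO. In WT the sum was mostly Hbb-bt. Of 4 tested, 1 fell in Ep300-KO, Hbb-bt, from 306 ± 112 to 61.2 ± 18.6 (log2 -2.29, limma adjusted p = 0.000799). The other 3 had log2 values above 0 there and were not called: Hbb-bs (0.69), Hba-a1 (1.87) and Alas2 (0.32). The part of these differences in the levels of Myc, Bmyc, Mxi1 and Mxd4 was not tested.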

How the data were processed

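The authors deposited 1 table of signal values, which by its name holds counts normalized with DESeq2, scaled by a size factor for each library. The submitters' processing notes name CASAVA 1.8, HISAT2, featureCounts, DESeq2 and the build mm10, and the labels name TruSeq RNA v2 libraries. Settings are not given in the sources used here. Values of every column were whole multiples of 1 step for 100.0% of values (relative tolerance 1e-06), so whole reads were recovered.

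Tests used limma 3.58.1 with a variance trend on log2(value + 1), 1 fit of 11 libraries with a mean per group, for 16515 genes with a mean of at least 10, two-sided, with Benjamini-Hochberg adjustment over all genes and a threshold of 0.05. Fold changes are on that scale, and intervals are 95% and unadjusted. Libraries carry numbers, but the labels do not say that each is 1 mouse, so p-values measure the spread between libraries. Members and lists were chosen with earlier results of these data known. Named genes were the members, the targeted genes, up to 4 called genes with the smallest p per list and the 5 most like Myc. Some list genes that were not called were named too, among them Mycl, Bcl6, Pvt1, Arrdc4, Csf1r, Siglech and Cd3e. Those were named by no set rule and with their values known. Alternatives included edgeR 4.0.16 and DESeq2 1.42.0 on recovered reads. Positions and lengths are from GENCODE M21 (GRCm38, the same build as mm10). The fit was tested on simulated data. R 4.3.3, Python 3.11.15, pandas 2.3.3 and matplotlib 3.10.9 were used.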

Additional observations from a re-analysis of the deposited data

Results flagged for a closer look

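Mxd1 stood at 1045 in WT_46, with a gap to the next WT library of 0.819 of the whole WT range, past Dixon's 95% limit of 0.71 for 5 samples. Of the 9 members tested in this way it was the only one past the limit, and chance alone gives about 1 such group in 20. WT_46 also had the highest Max (10807) and the lowest Myc (3720.0) and Mxi1 (213) of the WT libraries.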

How the results depend on the processing

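No paired analysis was possible because no replicate number occurs in more than 1 group. Of 207 values of members under alternatives, 204 kept direction and side of the threshold in Crebbp-KO against WT, 180 in Ep300-KO against WT and 202 between the knockouts. Members called numbered 3, 5 and 3 in the 3 comparisons. In Ep300-KO the number was 3 without a filter and 3 without a trend, mainly through Mga and Mnt. Leaving out 1 library each gave 3 to 4 members in Crebbp-KO, 3 to 5 in Ep300-KO and 2 to 3 between the knockouts, and 642 to 1541, 1169 to 2027 and 745 to 1954 of all genes, against 1380, 1970 and 1556. All genes called numbered 2730 in Crebbp-KO and 2808 between the knockouts with library weights, and 2335 between the knockouts with DESeq2. Genes called in the pathway lists numbered 10, 11 and 8. They were 6 without a trend and 21 with library weights in Crebbp-KO, 17 with DESeq2 and 7 without WT_46 and p300-KO_18 in Ep300-KO, and 5 without a filter and 20 with library weights between the knockouts. Leaving out 1 library gave 4 to 13, 3 to 13 and 3 to 11. The causes were not tested.

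Log2 values near 0 that were not called changed sign. In Ep300-KO against WT, Ccnd2 stood at 0.0273 with library weights, and Cip2a at 0.0275 with quantile normalization and 0.0441 without WT_46 and p300-KO_18. Leaving out 1 library at a time there gave -0.156 to 0.00216 for Ccnd2, -0.0610 to 0.0465 for Cip2a and -0.100 to 0.0256 for Cdkn2b. It gave -0.0296 to 0.123 for Hk2 in Crebbp-KO against WT. Between the knockouts it gave -0.0568 to 0.0173 for Max, -0.0884 to 0.0165 for Mlx and -0.160 to 0.00841 for Txnip. Read depth limits Mycn, with at most 8 reads in a library.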
